A study of Mus musculus with 15 samples.

Results

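Sertoli cell genes were followed through 15 RNA sequencing libraries of whole mouse testes. The 9 genes, Sox9, Wt1, Gata4, Rhox5, Fshr, Inhbb, Amh, Clu and Cldn11, were taken by their symbols from 36118 genes measured, and all 9 had a mean of at least 10 normalised counts over the libraries, the level required for testing. The libraries form 5 groups of 3 by their titles, MTX, HMS-I1, AA, TSA and Control, and the genotype field of every one of them, Control included, reads C57/BL6. No treatment abbreviation is spelled out, and neither age, dose nor duration is stated. In the treatment field the HMS-I1 libraries carry 3 different entries, HMS-I1, HMS-I2 and HMS-I3, so their use as 3 replicates rests on the titles alone. Separate animals are not named for the replicates, and every p-value given here therefore measures a spread that may be technical.

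Sertoli cells are the somatic cells that line the seminiferous tubule and enclose the developing germ cells. Follicle-stimulating hormone from the pituitary reaches them through the receptor Fshr and raises cyclic AMP in the cell, and they answer with inhibin B, which lowers the release of that hormone. Testosterone from the neighbouring Leydig cells acts on them as well. They also build the blood-testis barrier, a belt of tight junctions that separates the meiotic and postmeiotic germ cells from the blood. Sox9, Wt1 and Gata4 are transcription factors that set up or maintain this cell type. In a whole testis a lower value can come from fewer Sertoli cells or from less RNA in each of them. Because values are scaled by library, it can also come from more RNA of other cells. Bulk libraries cannot tell these apart.

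The promoters of 4 of the 9 genes, from 250 bases before to 50 bases after the annotated start, were taken from RefSeq on GRCm38.p6. The search was planned on the view that these genes are targets of each other and of follicle-stimulating hormone and androgen. Both strands were searched for AGGTCA (nuclear receptor core motif), GATAA (GATA factors), AACAAT (SOX factors), CACGTG (an E-box) and CGTCA (cyclic AMP response core motif). Capitals mark the matches, in the strand of the gene.
Fshr, chr17:89200626-89200925, minus strand: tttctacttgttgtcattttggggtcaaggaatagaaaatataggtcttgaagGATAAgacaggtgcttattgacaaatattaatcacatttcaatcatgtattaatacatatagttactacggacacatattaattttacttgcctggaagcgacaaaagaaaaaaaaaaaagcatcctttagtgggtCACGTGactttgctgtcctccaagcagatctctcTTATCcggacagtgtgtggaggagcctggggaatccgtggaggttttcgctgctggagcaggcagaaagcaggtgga
Inhbb, chr1:119422199-119422498, minus strand: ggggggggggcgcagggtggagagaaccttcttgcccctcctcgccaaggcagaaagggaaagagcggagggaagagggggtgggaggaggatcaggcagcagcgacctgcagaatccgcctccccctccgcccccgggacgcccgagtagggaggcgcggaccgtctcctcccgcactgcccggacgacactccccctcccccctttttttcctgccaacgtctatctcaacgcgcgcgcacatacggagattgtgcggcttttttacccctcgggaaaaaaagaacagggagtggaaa
Rhox5, chrX:37754358-37754657, plus strand: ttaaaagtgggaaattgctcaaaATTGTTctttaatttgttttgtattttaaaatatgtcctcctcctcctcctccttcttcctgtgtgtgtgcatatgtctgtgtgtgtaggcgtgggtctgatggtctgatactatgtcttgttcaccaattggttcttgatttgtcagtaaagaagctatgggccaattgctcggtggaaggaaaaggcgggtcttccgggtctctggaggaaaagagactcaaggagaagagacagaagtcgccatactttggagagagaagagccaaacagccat
Cldn11, chr3:31149670-31149969, plus strand: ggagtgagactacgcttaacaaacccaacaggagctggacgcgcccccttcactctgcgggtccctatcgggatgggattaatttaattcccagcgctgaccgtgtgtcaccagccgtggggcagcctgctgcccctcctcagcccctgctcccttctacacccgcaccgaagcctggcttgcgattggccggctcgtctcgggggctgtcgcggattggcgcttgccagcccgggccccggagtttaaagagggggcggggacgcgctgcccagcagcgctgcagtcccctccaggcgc

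Fshr held 3 matches, a GATAA that began 197 bases before the start, the same motif read on the other strand (TTATC) at 27 bases before it, and a CACGTG at 61 bases before it. No 2 of them overlap. Rhox5 held 1 match, the SOX motif on the other strand (ATTGTT) at 227 bases before the start. Inhbb and Cldn11 held none of the 5 motifs in this window. TGTTCT, an androgen receptor motif, was planned but not searched, so the capitals do not show where it occurs. Such short motifs are common, and among 32851 promoters of the same length 25.4% held GATAA, 7.15% CACGTG, 10.7% AACAAT, 16.3% AGGTCA and 20.8% CGTCA. A match describes letters and not a bound site. Sox9, Wt1, Gata4, Amh and Clu are given by name only.

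The libraries fall into 2 sets that cross the groups. MTX replicates 2 and 3, HMS-I1 replicates 2 and 3, AA replicates 2 and 3, TSA replicates 2 and 3 and Control replicate 3, 9 libraries called mitochondria-rich here, held 3.54% to 13.7% of their signal in mitochondrially encoded genes and a mean log2 value of 2.60 to 3.44 over 70 histone genes. Replicate 1 of every treatment with Control replicates 1 and 2, 6 libraries called histone-rich, held 1.08% to 1.40% and 6.97 to 8.01. The smallest recurring value, a guide to what a single read is worth, was 0.453 to 0.917 in the mitochondria-rich libraries and 1.98 to 2.62 in the histone-rich ones, so low genes are measured more finely in the 9 mitochondria-rich libraries. Column sums of 2.75e+07 to 4.06e+07 are not depths, since the deposited values are already scaled and the depth is unknown. Epididymis and rete testis markers were at or near 0, with Lcn5 and Lcn8 listed at 0 in 15 of 15 libraries and the whole list of 5 genes (Pax8, Lcn5, Lcn8, Crisp1 and Adam7) summing to 3.36 to 15.03 in the mitochondria-rich and 2.60 to 14.8 in the histone-rich libraries.

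Sox9, the factor that commits the supporting cells of the fetal gonad to the Sertoli fate, had 288, 636 and 716 normalised counts in the MTX libraries, 199.6, 863 and 731 in HMS-I1, 176, 813 and 1093 in AA, 229.6, 1062 and 1109 in TSA, and 231, 207 and 965 in Control, in replicate order. The first replicate of every treatment and the first 2 of Control were low, the other 9 libraries were high, and each treatment overlapped Control. By group mean the order was TSA, AA, HMS-I1, MTX and Control, with 800.4 ± 495 in TSA and 468 ± 431 in Control (SD, n = 3), and all 4 neighbouring pairs in that order overlapped in range.

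Wt1, a zinc finger factor that maintains the Sertoli identity, had 857, 4182 and 1739 in MTX, 848, 3103 and 1938 in HMS-I1, 941, 2153 and 3219.6 in AA, 839, 4176 and 2354 in TSA, and 797, 796 and 3315 in Control. The same 6 libraries were low, and they lay close together. The 9 high libraries were spread, with MTX replicate 2 and TSA replicate 2 on top and MTX replicate 3 lowest among them. TSA had the highest mean, 2457 ± 1671, and Control the lowest, 1636 ± 1454 (SD, n = 3).

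Gata4, a zinc finger factor that Leydig cells also express, had 640.4, 446 and 641 in MTX, 446, 696 and 959.9 in HMS-I1, 455, 659.7 and 925 in AA, 527, 837 and 1258 in TSA, and 619, 626 and 699.7 in Control. Apart from MTX replicate 2, the mitochondria-rich libraries lay above the histone-rich ones, but MTX replicate 3 (641) only just exceeded MTX replicate 1 (640.4). MTX replicate 2, a mitochondria-rich library, had the lowest value of all 15, and the SD over 3 libraries was 113 in MTX, 257 in HMS-I1, 236 in AA and 367 in TSA, against 44.7 in Control. TSA replicate 3 was highest.

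Rhox5, an X-linked homeobox gene that androgen induces in Sertoli cells, had 721, 1129 and 1088 in MTX, 811, 958 and 744 in HMS-I1, 832, 864 and 1109 in AA, 811, 1603 and 1076 in TSA, and 750.1, 712 and 1247 in Control. It varied least of the 9 genes, by 2.25-fold between the highest library, TSA replicate 2, and the lowest, Control replicate 2. HMS-I1 had the lowest group mean, 838 ± 110, and TSA the highest, 1163 ± 403 (SD, n = 3).

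Fshr, the receptor for follicle-stimulating hormone, had 72.0, 99.7 and 120.3 in MTX, 41.8, 137 and 153 in HMS-I1, 63.7, 101 and 165 in AA, 78.5, 191 and 170.3 in TSA, and 72.8, 45.6 and 148 in Control. The 6 histone-rich libraries were again the low ones, and TSA replicates 2 and 3 were the highest of all.

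Inhbb, which encodes the beta B subunit of inhibin B and activin B, had 473, 1212 and 1251 in MTX, 508, 1341 and 1384 in HMS-I1, 593, 1282 and 1581 in AA, 539, 1625 and 1815 in TSA, and 643, 569.8 and 1308 in Control. The high and low libraries were clearly apart, with no library between 643 and 1212. Replicates 2 and 3 of a treatment lay near each other in MTX, HMS-I1 and TSA.

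Amh encodes anti-Müllerian hormone, which removes the female duct in the male fetus and which Sertoli cells stop making in quantity at puberty. It had 13.1, 7.70 and 30.7 in MTX, 5.11, 16.9 and 51.1 in HMS-I1, 16.7, 31.9 and 23.0 in AA, 18.6, 19.0 and 78.9 in TSA, and 17.0, 26.8 and 15.9 in Control. In the histone-rich libraries these values, 5.11 to 26.8, stand against a smallest recurring value of 1.98 to 2.62 and are measured coarsely. HMS-I1 replicate 1 is the nearest to that value. Amh varied most, 15.4-fold between the highest and lowest library. TSA replicate 3 stood above all others, while TSA replicates 1 and 2 were within the range of Control.

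Clu encodes clusterin, a secreted chaperone that Sertoli cells release into the tubule. It had 16872, 24292 and 24560.4 in MTX, 17662, 32409 and 33354 in HMS-I1, 19209, 26356 and 40549 in AA, 16719.5, 44282 and 43173 in TSA, and 18313, 17801 and 30582 in Control. The 6 histone-rich libraries were nearly level, and the 9 others were ordered from MTX replicate 2 up to TSA replicate 2.

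Cldn11, the claudin of the blood-testis barrier, had 2211, 3169 and 4036 in MTX, 2444, 3901 and 4108 in HMS-I1, 2441, 4127 and 5236 in AA, 2345, 5057 and 5349 in TSA, and 2399.9, 2105 and 4602 in Control. Its pattern was the one closest to that of Clu, with low and nearly level histone-rich libraries and TSA replicates 2 and 3 among the top 3.

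**Figure D1:**
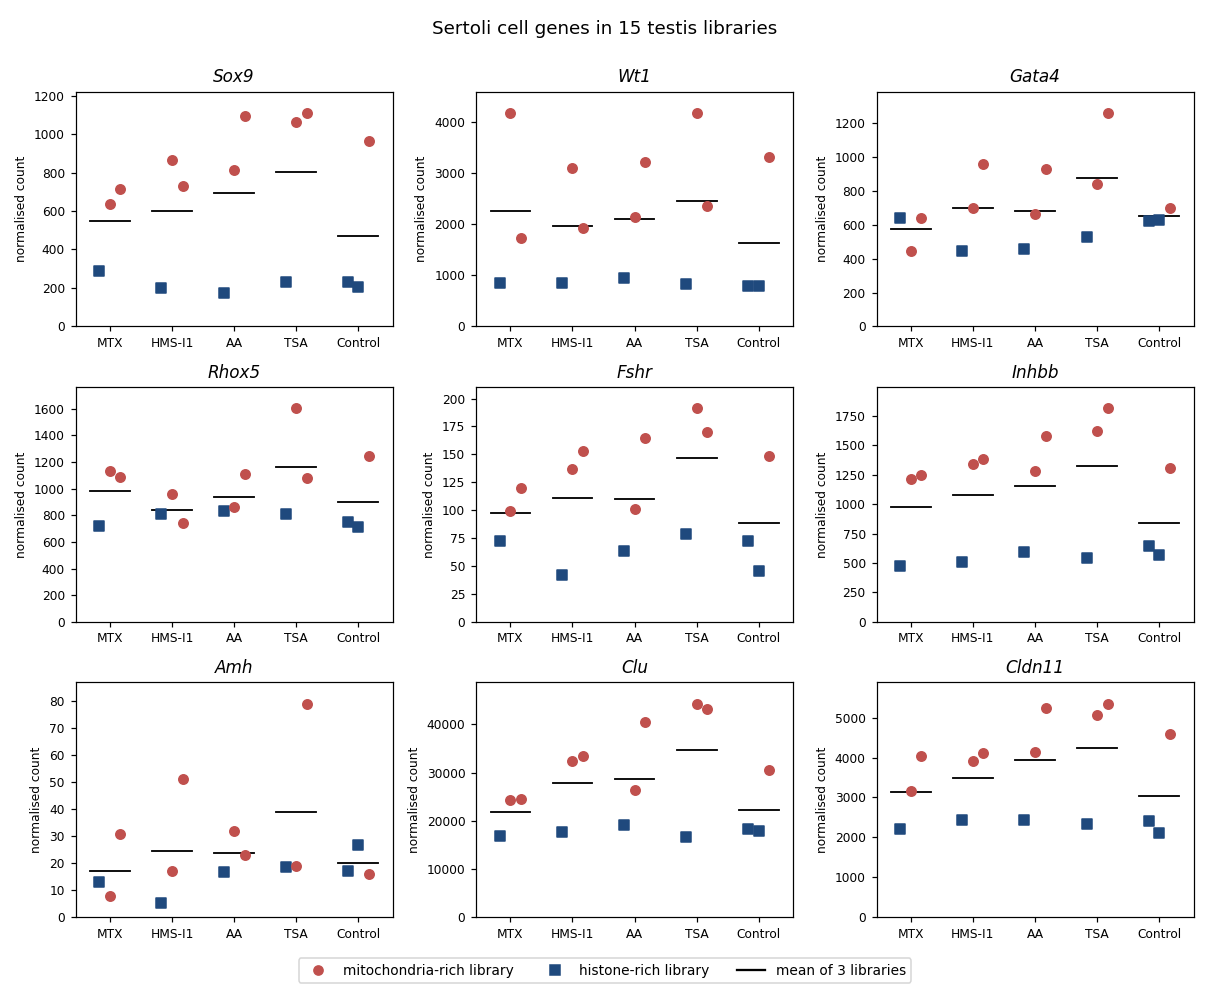
Normalised counts of the 9 Sertoli cell genes in 15 libraries, 1 panel a gene and each vertical axis from 0, with circles for the mitochondria-rich and squares for the histone-rich libraries and a bar for the mean of 3. For Sox9, Wt1, Fshr, Inhbb, Clu and Cldn11 all squares lie below all circles, in treated and Control groups alike.

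TSA had the highest group mean of all 9 genes, and Control the lowest of 5 of them (Sox9, Wt1, Fshr, Inhbb and Cldn11). MTX was lowest for Amh, Gata4 and Clu and HMS-I1 for Rhox5. All of these orders rest on ranges that overlap between neighbours, 4 of 4 pairs for each gene. The groups also differ in their libraries, since 2 of 3 are mitochondria-rich in each treatment and 1 of 3 in Control.

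Each treatment was set against Control in a limma fit of log2(normalised count + 1) over 17896 genes, in which the fold changes understate the change of low genes such as Amh. No Sertoli cell gene passed an adjusted p of 0.05, and neither did any other gene, so that the share called was 0% for MTX, 0% for HMS-I1, 0% for AA, 0% for TSA and 0% in the F-test across the 5 groups. At an unadjusted p under 0.05 the fit held 98, 73, 143 and 1027 genes for MTX, HMS-I1, AA and TSA, and 230 for the F-test. Without TSA replicate 1, a histone-rich library, the TSA comparison called 992 genes, with 0 of the 9 Sertoli cell genes among them, and the F-test 246. The adjusted p of all 9 genes was 1 for MTX and HMS-I1, 1.00 for AA and 0.886 for TSA.

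TSA gave the largest fold changes, with Sox9 at 0.85 (SE 0.86) on the log2 scale, Fshr at 0.78 (SE 0.58), Wt1 at 0.66 (SE 0.78), Amh at 0.63 (SE 0.78), Inhbb at 0.58 (SE 0.59), Clu at 0.56 (SE 0.42), Cldn11 at 0.48 (SE 0.42), Rhox5 at 0.36 (SE 0.30) and Gata4 at 0.34 (SE 0.37). All 9 values were positive, with a median of 0.58 beside a median of 0.01 over all genes tested, of which 50.5% were positive. In AA all 9 were positive too, from 0.01 for Gata4 to 0.58 for Sox9 (median 0.36, against -0.02 over all genes). In HMS-I1 and in MTX 7 of 9 were positive, with medians of 0.27 and 0.14 and with Amh negative in both, at -0.19 and -0.37 (SE 0.78 each). The other negative values were Rhox5 in HMS-I1 (-0.07, SE 0.30) and Gata4 in MTX (-0.19, SE 0.37), and Clu in MTX, at 0.00 (SE 0.42), became -0.06 when every library was scaled to the same total. Most SEs were as large as the fold changes beside them. With 1 library left out at a time, Sox9 in TSA lay between 0.45, without Control replicate 2, and 1.59, without TSA replicate 1. Without TSA replicate 1, the upper ends were 0.97 for Amh, 0.66 for Gata4, 1.02 for Clu, 1.13 for Inhbb and 0.87 for Cldn11, and without Control replicate 3 they were 1.342 for Wt1, 1.23 for Fshr and 0.61 for Rhox5. The lower ends were -0.04 for Amh, 0.04 for Gata4 and 0.26 for Inhbb without TSA replicate 3. They were 0.13 for Wt1, 0.32 for Clu and 0.097 for Rhox5 without TSA replicate 2, and 0.39 for Fshr and 0.26 for Cldn11 without Control replicate 2. Scaling every library to the same total moved the median of all genes to -0.08 in MTX, 0.00146 in HMS-I1, 0.09 in AA and 0.11 in TSA, and that of the 9 genes to 0.08, 0.29, 0.48 and 0.68. These 4 comparisons share the Control libraries, so the positive values are not independent of each other.

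The ranges of 3 libraries did not part for any of the 9 genes in any treatment. Over all genes tested, the ranges lay apart and higher for 1.32% in MTX, 1.35% in HMS-I1, 2.81% in AA and 2.36% in TSA, and apart and lower for 1.15%, 1.35%, 2.23% and 2.18%.

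With the library set as a term in the fit the picture changed for 3 of the 4 treatments. All 9 genes were then negative in MTX, with a median of -0.21 and with Inhbb at -0.26 (SE 0.16), Clu at -0.28 (SE 0.21) and Gata4 at -0.36 (SE 0.30). In HMS-I1 8 of 9 were negative (median -0.13) and in AA 7 of 9 (median -0.03). In TSA all 9 stayed positive, at smaller values, with Fshr at 0.39 (SE 0.30), Amh at 0.38 (SE 0.72), Clu at 0.27 (SE 0.21), Rhox5 at 0.20 (SE 0.22), Sox9 at 0.18 (SE 0.24), Cldn11 at 0.18 (SE 0.17), Gata4 at 0.18 (SE 0.30), Inhbb at 0.12 (SE 0.16) and Wt1 at 0.08 (SE 0.33), with adjusted p-values of 0.864 to 0.984 in limma. This fit called 0 genes as well, with 328, 219, 297 and 1351 at an unadjusted p under 0.05 in the same order and 1031 in the F-test.

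**Figure D2:**
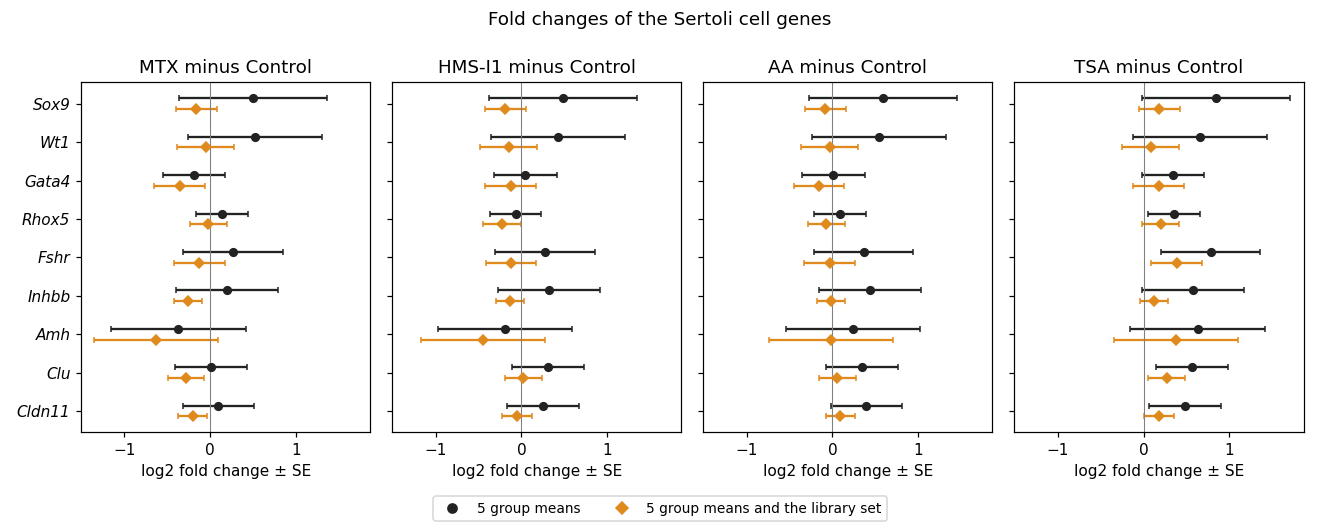
Log2 fold change of each Sertoli cell gene in MTX, HMS-I1, AA and TSA minus Control, 1 panel a treatment, with bars of 1 SE from the limma fit of 15 libraries (circles) and from the fit with the library set as a term (diamonds). With the set term the values move towards 0 or below it in MTX, HMS-I1 and AA, stay above 0 in TSA, and their SEs become smaller.

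Within the mitochondria-rich set the 2 treated libraries of each treatment can be read against Control replicate 3, with no test because Control has 1 library there. In TSA, replicates 2 and 3 both exceeded Control replicate 3 for 7 of the 9 genes, Sox9, Amh, Gata4, Fshr, Clu, Inhbb and Cldn11, and neither Wt1 nor Rhox5 was below it in both. Over all genes tested 34.2% were above it in both TSA libraries and 31.3% below. TSA replicate 2 was above Control replicate 3 for 9 of 9 genes, by 1.099-fold to 1.45-fold with a median of 1.24, and TSA replicate 3 for 7 of 9, with a median of 1.16. Amh in TSA replicate 3 reached 4.97 times the Control library, at 78.9 against 15.9 normalised counts, and 1.198 times in TSA replicate 2.

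In MTX the opposite held. Replicates 2 and 3 were both below Control replicate 3 for 7 of 9 genes, Sox9, Gata4, Fshr, Clu, Inhbb, Rhox5 and Cldn11, and both above it for 0 of 9, where 19% of all genes were below in both and 18.8% above. The median ratio was 0.689 in MTX replicate 2 and 0.872 in MTX replicate 3. Sox9 stood at 0.659 and 0.742 of the Control library, Fshr at 0.672 and 0.811, and Clu at 0.794 and 0.803.

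HMS-I1 and AA lay between. In HMS-I1, 3 genes were above Control replicate 3 in both libraries (Amh, Clu and Inhbb) and 4 below (Sox9, Wt1, Rhox5 and Cldn11), against 26.8% above and 26.8% below of all genes. In AA, 1 was above in both (Amh) and 2 below (Wt1 and Rhox5), against 33.5% above and 34.9% below. These counts depend on the scaling. With the same total in every library, 8 of 9 genes were above in TSA, 5 were below in MTX, 2 were above and 3 below in HMS-I1, and 5 were above and 0 below in AA. The shares of all genes were not computed at that scaling.

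Within the histone-rich set, where replicate 1 of each treatment can be read against Control replicates 1 and 2, the 9 genes showed no common shift. The median log2 difference was -0.02 in MTX, -0.13 in HMS-I1, 0.09 in AA and 0.06 in TSA, and 4, 3, 5 and 5 of the 9 genes were higher. The extreme value was Amh in HMS-I1 replicate 1, at -1.87, from 5.11 normalised counts there against 17.0 and 26.8 in Control. In the mitochondria-rich set the medians were -0.32 in MTX, -0.04 in HMS-I1, 0.01 in AA and 0.28 in TSA.

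**Figure D3:**
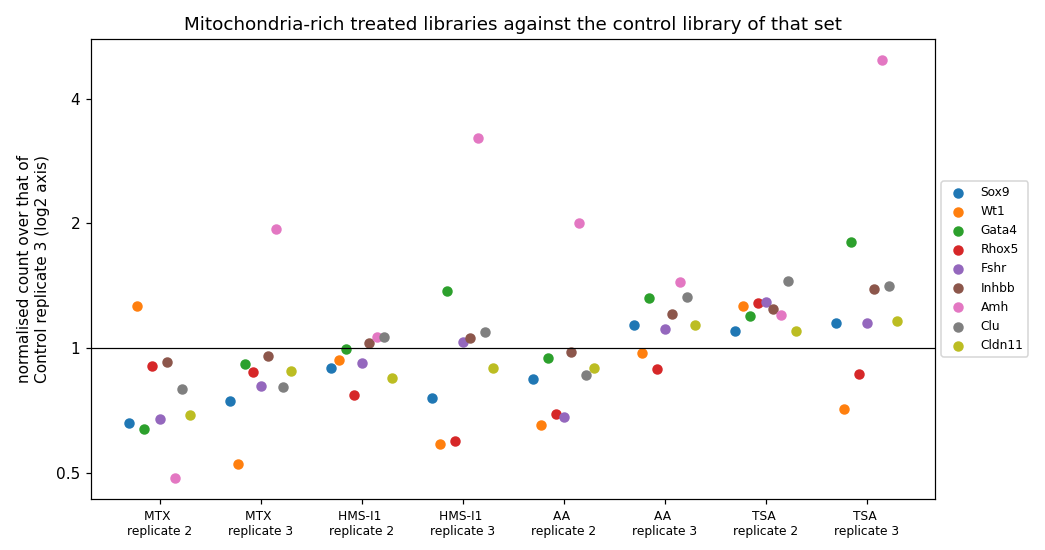
Normalised count of each Sertoli cell gene in the 8 treated mitochondria-rich libraries, divided by that of Control replicate 3, on a log2 axis with a line at 1. TSA replicate 2 has all 9 genes above the line, while the same 7 genes lie below it in both MTX libraries.

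For each of the 9 genes the difference between the 2 library sets was larger than its fold change in any treatment. All 9 genes were higher in the mitochondria-rich than in the histone-rich libraries, with a median log2 difference of 0.90 beside -0.00133 over all genes tested, and for 6 of 9 the sets did not overlap, where 12% of all genes lay apart and higher and 12.8% apart and lower. The sets were read from histone genes, not from the genes described here, and the difference is given as a description with no test.

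Sox9 differed most, with a range of 636 to 1109 and a median of 863 normalised counts in the mitochondria-rich libraries and 176 to 288 with a median of 218 in the histone-rich ones, a log2 difference of 1.99 or 3.96-fold. For Wt1 the values were 1739 to 4182 against 796 to 941, a 3.29-fold difference. Inhbb lay at 1212 to 1815 against 473 to 643 (2.55-fold). The 3 genes with the widest gaps therefore include a pair of transcription factors and a hormone subunit.

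Fshr lay at 99.7 to 191 against 41.8 to 78.5 (2.28-fold), Cldn11 at 3169 to 5349 against 2105 to 2444 (1.87-fold), and Clu at 24292 to 44282 against 16719.5 to 19209 (1.83-fold). The remaining genes overlapped between the sets. Amh was 1.66-fold higher by its mean log2 value, with 7.70 to 78.9 against 5.11 to 26.8, Gata4 1.39-fold, with 446 to 1258 against 446 to 640.4, and Rhox5 1.38-fold, with 744 to 1603 against 712 to 832. With the same total in every library all 9 differences kept their sign and moved by at most 0.01 on the log2 scale, while the number of genes without overlap was 3 (Sox9, Wt1 and Inhbb). The share of all genes without overlap was not computed at that scaling.

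**Figure D4:**
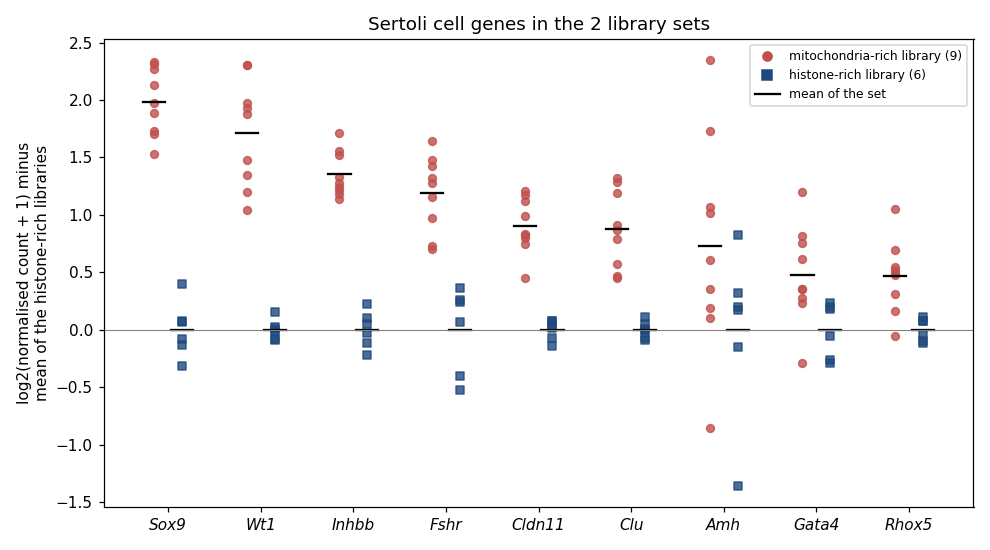
Log2(normalised count + 1) of each Sertoli cell gene in the 9 mitochondria-rich (circles) and 6 histone-rich (squares) libraries, minus the mean of the histone-rich libraries, with bars at the means of the sets. The difference runs from 1.99 for Sox9 down to 0.47 for Rhox5, and Amh has the widest scatter within both sets.

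The genes did not shift by the same amount, and a ratio inside a library shows this without regard to its scaling. Taken relative to the mean log2 value of the other 8 genes, Sox9 was at -0.59 to -0.10 in the mitochondria-rich and -1.69 to -0.90 in the histone-rich libraries, a difference of 1.02 with no overlap. Wt1 differed by 0.72 and Inhbb by 0.31, Inhbb again with no overlap (0.39 to 0.71 against -0.10 to 0.34). Fshr moved with the average of the others, at 0.13. Cldn11 (-0.19), Clu (-0.23), Amh (-0.39), Gata4 (-0.67) and Rhox5 (-0.68) were lower relative to the others in the mitochondria-rich libraries.

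Between treatments and Control these relative levels were compared by 36 two-sided exact permutation tests of 3 against 3 libraries, a design that cannot go below p = 0.1. The smallest exact p was 0.2, for Inhbb in HMS-I1 with a log2 difference of 0.13, and all 36 had an adjusted p of 1. Sox9 relative to the others differed from Control by 0.42 in MTX, 0.31 in HMS-I1, 0.28 in AA and 0.30 in TSA, where Control itself had an SD of 0.74 over its 3 libraries.

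**Figure D5:**
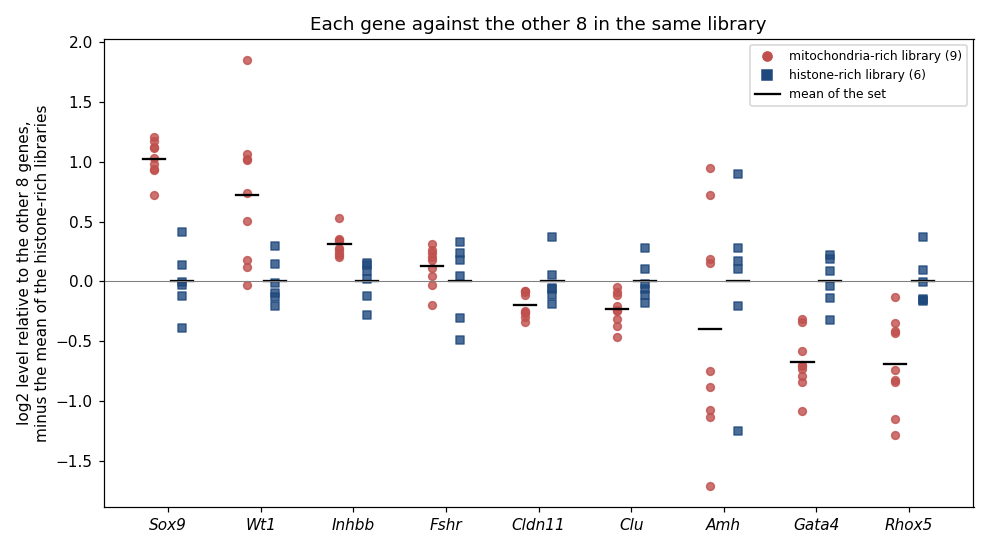
Log2 level of each Sertoli cell gene relative to the mean of the other 8 in the same library, minus the mean of the histone-rich libraries, for 9 mitochondria-rich (circles) and 6 histone-rich (squares) libraries, with bars at the means. Sox9, at 1.02, and Rhox5, at -0.68, mark the ends of the order.

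Replicates 2 and 3 of each treatment, all in the mitochondria-rich set, also differed from each other. Gata4, Inhbb and Cldn11 were higher in replicate 3 than in replicate 2 in all 4 treatments and 0 of the 9 genes lower in all 4, where 16% of all genes were higher and 10.4% lower throughout. Wt1 differed, as replicate 3 minus replicate 2 on the log2 scale, by -1.27 in MTX, -0.68 in HMS-I1, 0.58 in AA and -0.83 in TSA. Rhox5 had the same signs, at -0.053, -0.37, 0.36 and -0.57, while Amh had the opposite ones, at 1.87, 1.54, -0.46 and 2.00. The mean log2 value of 6 spermatocyte markers (Sycp1, Sycp3, Ccna1, Piwil1, Hspa2 and Ldhc) was 13.998 in MTX, 13.91 in HMS-I1, 14.07 in AA and 13.91 in TSA for the replicate 3 libraries. For the replicate 2 libraries it was 14.75 in MTX, 14.45 in HMS-I1, 13.94 in AA and 14.26 in TSA, so that it was lower in replicate 3 in the same 3 treatments as Wt1. The mean log2 value of the other Sertoli junction genes, named further on, had the same signs, and that of the spermatid markers did not. The mitochondrially encoded share had the signs of Wt1 too. From replicate 2 to 3 it went from 13.7% to 5.08% in MTX and from 9.62% to 3.54% in HMS-I1. It went from 5.95% to 8.23% in AA and from 10.4% to 4.52% in TSA. The mean log2 value of the histone genes had the opposite signs, though in AA it hardly moved (2.957 to 2.949). The share of all genes with these signs was not computed. The part of spermatocytes, or of these library measures, in the Wt1 and Rhox5 values was not tested.

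Among each other, Clu and Cldn11 had the most similar pattern over the 15 libraries, with a root mean square difference of 0.145 between their centred log2 values, followed by Inhbb and Cldn11 (0.255) and Clu and Inhbb (0.272). Amh and Wt1 were farthest apart, at 1.17. By the same measure, the genes outside the group with the pattern most like each of the 9 were found over all tested genes. The nearest gene was Ubqln2 for Sox9 (0.123), Lactb for Wt1 (0.118), Asb2 for Gata4 (0.118), Aplf for Rhox5 (0.125), Ppp2r5d for Fshr (0.184), Zc3h7b for Inhbb (0.0871), Arpin for Clu (0.118) and Minpp1 for Cldn11 (0.106). Next came Basp1 for Sox9, Rbms2 and Rab7 for Wt1, Inppl1 and Tspan31 for Gata4, Llph and Rbmxl1 for Rhox5, Zfp30 and Ddx19a for Fshr, Ubtf and Arhgdia for Inhbb, Tmem206 and Hadh for Clu, and Colgalt1 and Melk for Cldn11. Amh had no close neighbour, since its nearest, Esam, was at 0.420 and the next, Cdc42ep1 and Klhdc8a, at 0.426 and 0.447. All of these patterns are read over the same 15 libraries and contain the split into sets.

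Other genes of Sertoli cells were read from lists by role, and none of their members passed the test in any treatment. Between the library sets, 12% of all genes tested lay apart and higher and 12.8% apart and lower. Whether the sets overlap for these lists with the same total in every library was not examined. Of 8 other transcription factors (Nr5a1, Dmrt1, Nr0b1, Etv5, Sox8, Gata1, Zfpm2 and Rhox8), 7 were higher in the mitochondria-rich set (median 0.77) and 4 did not overlap, namely Dmrt1, Etv5, Sox8 and Rhox8. Rhox8, a homeobox gene of the same X-linked cluster as Rhox5, lay at 352 to 1109 with a median of 598 in the mitochondria-rich and 126 to 169 with a median of 134 in the histone-rich libraries, a log2 difference of 2.08 where Rhox5 had 0.47. In TSA against Control 7 of the 8 were higher (median 0.51), from Rhox8 at 0.65 (SE 0.93) down to Zfpm2, the partner of Gata4, at -0.30 (SE 0.38). In AA 8 of 8 were higher (median 0.39), from Rhox8 at 0.78 (SE 0.93) to Zfpm2 at 0.08 (SE 0.38). In HMS-I1 7 were higher (median 0.31), from Etv5 at 0.53 (SE 0.52) to Zfpm2 at -0.12 (SE 0.38). In MTX 5 were higher (median 0.07), from Rhox8 at 0.72 (SE 0.93) to Gata1 at -0.18 (SE 0.34), and 4 with a median of 0.0091 when every library had the same total. With the library set as a term, 3 of the 8 were higher in MTX (median -0.16), and 6 each in HMS-I1 (0.06), AA (0.09) and TSA (0.21).

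Of 8 other junction proteins (Tjp1, Ocln, Gja1, Cldn3, Cldn5, Cdh2, Espn and Nectin2), 8 were higher in the mitochondria-rich set, and Espn, Ocln and Gja1 did not overlap. Espn, an actin-bundling protein of the junction between Sertoli cells and spermatids, lay at 1906 to 3187 against 406 to 662, and Gja1, the gap junction protein connexin 43, at 2239.6 to 4685 against 1874 to 2157. Ocln, occludin, which joins Cldn11 in the tight junction, lay at 359 to 599.7 against 214 to 313. In TSA 7 of 8 were higher (median 0.28) and in HMS-I1 8 of 8 (median 0.19), with Espn highest in both, at 0.80 and 0.66 (SE 0.96 each). In AA 7 were higher (median 0.12), with Espn at 0.49 (SE 0.96) and Cldn3 at -0.44 (SE 0.43). In MTX 5 were higher (median 0.04), from Espn at 0.37 (SE 0.96) to Nectin2 at -0.24 (SE 0.23), and 3 with a median of -0.03 when every library had the same total. The lowest were Tjp1 at -0.11 (SE 0.25) in TSA and Gja1 at 0.03 (SE 0.37) in HMS-I1. The set term left 1 of 8 higher in MTX (median -0.22), 5 in HMS-I1 (0.01), 2 in AA (-0.06) and 7 in TSA (0.05).

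Of 10 other secreted and transport proteins (Inha, Inhba, Trf, Kitl, Gdnf, Dhh, Ptgds, Shbg, Ctsl and Cst12), 6 were higher and 4 lower in the mitochondria-rich set, with a median of 0.09. Gdnf, a growth factor that maintains spermatogonial stem cells, lay at 33.4 to 62.6 against 10.3 to 32.2 and did not overlap. The gap between its sets is narrower than the smallest recurring value of the histone-rich libraries, 1.98 to 2.62. Cst12, a cystatin, was lower without overlap, at 1898 to 4449.7 against 5367 to 8548. That is 1 of 10 genes each way, near the 12% and 12.8% of all genes tested. Inha, the alpha subunit that pairs with the product of Inhbb in inhibin B, was at 525 to 2642 against 1451 to 1511, a difference of 0.06 where Inhbb had 1.35, and Inhba, the beta A subunit, at 25.6 to 90.2 against 7.19 to 31.6. In TSA 8 of 10 were higher (median 0.18), from Ptgds at 0.33 (SE 0.58) down to Inhba at -0.15 (SE 0.935), and in AA 7 (median 0.21), from Inhba at 1.01 (SE 0.935) to Ptgds at -0.59 (SE 0.58). In HMS-I1 3 of 10 were higher (median -0.09), from Trf at 0.38 (SE 0.43) to Cst12 at -0.30 (SE 0.58), and in MTX also 3 (median -0.29), from Inhba at 0.17 (SE 0.935) to Ptgds at -0.53 (SE 0.58). In the fit with the set term 2 of 10 were higher in MTX (median -0.32), 4 in HMS-I1 (-0.03), 7 in AA (0.26) and 6 in TSA (0.11).

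Of 6 further markers (Vim, Krt18, Aard, Mro, Tsx and Fabp3), 6 were higher in the mitochondria-rich set, with a median of 0.97. Vim, the intermediate filament of these cells, lay at 3008 to 5707 against 1470.03 to 2178, Aard at 6154 to 9718 against 1956 to 2741, and Mro at 1008 to 1812 against 491 to 653, each without overlap. Aard was the highest of the 6 in TSA, at 0.70 (SE 0.72), in HMS-I1, at 0.57, and in MTX, at 0.67, and Krt18 in AA, at 0.65 (SE 0.63). The count above Control was 6 of 6 in TSA (median 0.43), 4 in AA (median 0.39), 5 in HMS-I1 (median 0.35) and 4 in MTX (median 0.17). When every library had the same total it was 6 in TSA, AA and HMS-I1 and 3 in MTX. The set term gave 5 in TSA (median 0.10) and 2 in each of AA (-0.07), HMS-I1 (-0.02) and MTX (-0.16). The lowest were Krt18 in TSA (0.05) and MTX (-0.28) and Tsx in AA (-0.04) and HMS-I1 (-0.0021). Krt18, a keratin of the fetal and immature Sertoli cell, was low in all libraries, at 5.29 to 35.8 in the mitochondria-rich and 5.99 to 16.4 in the histone-rich ones.

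Markers of other testis cells moved between the sets as well. In the mitochondria-rich libraries 5 of 6 peritubular myoid genes were higher (median log2 difference 1.22), 7 of 8 Leydig genes (0.70), 7 of 8 macrophage genes (0.66), 5 of 5 endothelial genes (0.52), 5 of 6 spermatocyte genes (0.38, and 6 of 6 with the same total in every library) and 4 of 7 spermatogonial genes (0.19), while 6 of 8 spermatid genes (-0.35) and 4 of 6 fat cell genes (-0.46) were lower. The summed level of the 8 spermatid markers (Acrv1, Tnp1, Tnp2, Prm1, Prm2, Odf1, Gapdhs and Spaca1) was 184332 to 421300 in the mitochondria-rich and 593263 to 872731 in the histone-rich libraries, and that of the 9 Sertoli cell genes 34182.5 to 58851 and 22108 to 24728. By mean log2 value the spermatid list overlapped between the sets, at 13.56 to 15.23 against 14.90 to 15.47. The Sertoli list did not, at 9.61 to 10.45 against 8.69 to 9.05. Clu alone was 24292 to 44282 and 16719.5 to 19209 of the Sertoli sums. By group, the spermatid sum was 392119 to 593263 in MTX, 355562 to 872731 in HMS-I1, 234705 to 631560 in AA, 184332 to 765296 in TSA and 421300 to 817714 in Control. The Leydig sum was 27254.5 to 39378 in MTX, 29600.5 to 49309.7 in HMS-I1, 38211 to 57713 in AA, 26395 to 61236.5 in TSA and 28593 to 35709.7 in Control. The part of these cell types, and of the smallest recurring value, in the Sertoli cell values was not tested.

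Against Control the marker lists of other cells moved beside the Sertoli cell genes, with no gene of them passing an adjusted p of 0.05 in limma. In TSA 8 of 8 Leydig genes (median log2 fold change 0.52), 7 of 7 spermatogonial genes (0.40), 5 of 6 myoid genes (0.36), 6 of 8 macrophage genes (0.38) and 3 of 5 endothelial genes (0.13) were higher. Of the spermatid genes 7 of 8 were lower in TSA (-1.22), as were 6 of 6 fat cell genes (-2.10), while 3 of 6 spermatocyte genes were higher (median -0.02, and 0.09 with the same total in every library). The mean log2 value of the fat cell genes was 9.22, 6.98 and 5.00 in Control and 5.34, 4.92 and 4.78 in TSA, in replicate order. The fat cell fall thus leans on Control replicate 1. With the library set as a term, the counts higher in TSA were 6 of 8 for Leydig genes (0.28), 6 of 7 for spermatogonial genes (0.30), 2 of 6 for myoid genes (-0.06), 5 of 8 for macrophage genes (0.16) and 2 of 5 for endothelial genes (-0.05). In that fit 8 of 8 spermatid genes (-0.75) and 6 of 6 fat cell genes (-1.43) were lower in TSA. The positive Sertoli cell values in TSA stand beside higher Leydig and spermatogonial and lower spermatid values in both fits.

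In AA 7 of 8 Leydig genes (median 0.50), 5 of 5 endothelial genes (0.58), 7 of 8 macrophage genes (0.48), 6 of 7 spermatogonial genes (0.35) and 5 of 6 myoid genes (0.32) were higher, and 7 of 8 spermatid genes (-0.45) lower. The set term left 5 Leydig (0.34), 5 endothelial (0.18), 7 macrophage (0.24), 5 spermatogonial (0.13) and 1 myoid gene (-0.08) higher in AA, with 6 of 8 spermatid genes lower (-0.37). In HMS-I1 7 of 8 Leydig genes (0.34) and 6 of 7 spermatogonial genes (0.27) were higher, 7 of 8 spermatid genes (-0.24) and 6 of 6 fat cell genes (-1.15) lower. With the set term these counts became 6 (0.13), 5 (0.18), 5 (-0.09) and 6 (-0.93). In MTX 5 of 8 Leydig genes (0.03) were higher and 5 of 8 spermatid genes (-0.30) and 6 of 6 fat cell genes (-0.62) lower, against 2 (-0.10), 5 (-0.21) and 4 (-0.38) with the set term. The fat cell values of HMS-I1 and MTX lean on Control replicate 1 as well. The part of these shifts in the Sertoli cell fold changes was not tested.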

How the data were processed

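RNA sequencing of whole testes was analysed in 15 libraries from a deposited table of normalised counts, a scaled signal for 36118 Ensembl genes. Per the labels' protocols, total RNA was extracted with Trizol, column-purified and sequenced on a NovaSeq instrument. The submitters' processing notes name DESeq2 1.34.0, Salmon 0.12.0, FastQC 0.11.9 and the build GRCm39. How strand was handled is not given in the sources used. Salmon shares reads among transcripts, and only 6.32% to 13.0% of low values were whole steps of the commonest low value (tolerance 0.02 of a step), so reads could not be recovered, a count test was not run and no counting interval is given. Symbols came from an annotation of GRCm38, which matched 35825 identifiers and left 293 without a symbol.

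Libraries were grouped by title. Values were taken as log2(value + 1) and fitted with limma 3.58.1 (trend, R 4.3.3) to 5 group means over 17896 genes with a mean of at least 10, two-sided, with Benjamini-Hochberg adjustment over all of them. The fit was tested on simulated data. Within a group the libraries correlated at 0.829 to 0.966 (Pearson's r over genes), and 0 pairs were identical. Library sets were read from the mean log2 value of 70 histone genes, at or above 5 against below. The alternatives were a pseudocount of 5, no filter, equal totals, pairs of groups, the set as a term, a replicate block, leaving out each library and reading within each set. Equal totals for the differences between sets were added after seeing the data.

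The 9 genes, the lists and the tests were chosen with earlier results of these data known. Named genes are the 9, the highest and lowest gene of each list in a comparison, up to 3 genes with the smallest root mean square difference from each of the 9, and genes of the other Sertoli lists whose library sets are described, chosen after their values were seen. A few items that these rules name are not reported here.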

Additional observations from a re-analysis of the deposited data

How the results depend on the processing

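No Sertoli cell gene passed an adjusted p of 0.05 in limma under any of the alternatives run, 216 values under other settings and 216 with 1 library left out, and the smallest adjusted p was 0.176, without TSA replicate 1. Over all genes, fitting only the 2 groups compared gave 1 call in MTX, 2 in AA and 1 in TSA. Leaving out each library gave 0 to 1 calls in MTX, HMS-I1 and AA, 0 to 992 in TSA and 0 to 246 in the F-test, where 992 and 246 were the counts without TSA replicate 1, a histone-rich library. The replicate block gave 0 calls in each comparison and left each fold change as it was. Same-numbered libraries deviated together for replicates 1 (correlation 0.41 to 0.52) and 3 (0.21 to 0.67) but not for replicates 2 (-0.58 to -0.30), where Control replicate 2 is histone-rich and the other replicates 2 mitochondria-rich. The numbers were not taken to pair the libraries.

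Fold changes turned negative in 21 of the 216 other settings. With the library set as a term, MTX had Sox9 at -0.17, Wt1 at -0.053, Fshr at -0.13, Clu at -0.28, Inhbb at -0.26, Rhox5 at -0.021 and Cldn11 at -0.21. HMS-I1 had Sox9 at -0.19, Wt1 at -0.15, Gata4 at -0.12, Fshr at -0.12, Inhbb at -0.13 and Cldn11 at -0.05032, and AA had Sox9 at -0.082, Amh at -0.015, Wt1 at -0.031, Gata4 at -0.16, Fshr at -0.0298, Inhbb at -0.0145 and Rhox5 at -0.072. With equal totals Clu in MTX was at -0.056. Leaving out 1 library changed a sign in 29 of 216 values. In MTX the range was -0.88 to 0.054 for Amh, -0.0701 to 1.21 for Wt1, -0.13 to 0.72 for Fshr, -0.13 to 0.26 for Clu, -0.048 to 0.65 for Inhbb, -0.01033 to 0.39 for Rhox5 and -0.13 to 0.44 for Cldn11. In HMS-I1 it was -0.96 to 0.58 for Amh, -0.22 to 0.34 for Gata4, -0.12 to 0.86 for Fshr and -0.22 to 0.19 for Rhox5, in AA -0.24 to 0.27 for Gata4, -0.026 to 0.81 for Fshr and -0.061 to 0.34 for Rhox5, and in TSA -0.039 to 0.97 for Amh. Within each set, 35 of 36 values moved by less than the largest SD of the gene within any group. Every group holds libraries of both sets, so that SD contains the split and the count cannot show stability. Sox9 in MTX went from 0.50 to -0.51 within the mitochondria-rich set and was still among the 35. The cause of these changes was not tested. The depth is unknown, and the smallest recurring value, higher in the histone-rich libraries, limits Amh most.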

Other observations

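Of 7 receptor genes for anti-Müllerian hormone, activin and inhibin (Amhr2, Bmpr1a, Acvr1, Acvr1b, Acvr2a, Acvr2b and Tgfbr3), 5 were higher in the mitochondria-rich than in the histone-rich libraries, with a median log2 difference of 0.11, and Acvr1, a type I receptor, did not overlap, at 233 to 474 against 118 to 190.1 normalised counts. Acvr1 was thus 1 of 7, where 12% of all genes tested lay apart and higher. Whether its sets overlap with equal totals in every library was not examined. Amhr2, the type II receptor that binds anti-Müllerian hormone, lay at 1181 to 7030.03 in the mitochondria-rich and 3829 to 4898 in the histone-rich libraries. Against Control, 6 of 7 were higher in TSA (median 0.28) and in AA (median 0.29), 4 in HMS-I1 (median 0.02) and 3 in MTX (median -0.01). The counts were 6, 7, 4 and 3 in the same order when every library had the same total, and 5 (median 0.18), 5 (0.10), 2 (-0.12) and 2 (-0.05) with the library set as a term. The highest was Acvr2b in TSA, at 0.81 (SE 0.34), and in HMS-I1, at 0.64 (SE 0.34), Bmpr1a in AA, at 0.41 (SE 0.43), and Acvr1 in MTX, at 0.33 (SE 0.55). The lowest was Acvr2a in TSA (-0.12, SE 0.21) and HMS-I1 (-0.14, SE 0.21), Acvr1b in AA (-0.10, SE 0.21) and Amhr2 in MTX (-0.30, SE 0.52). None passed an adjusted p of 0.05 in limma.

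Of 9 genes that carry the signal of follicle-stimulating hormone through cyclic AMP (Gnas, Adcy3, Prkaca, Prkar1a, Prkar2b, Creb1, Pde4b, Pde4d and Akap13), 6 were higher in the mitochondria-rich libraries (median 0.26). Gnas, the stimulatory G protein subunit, lay at 4585 to 6610.01 against 2166 to 2641, Prkar1a, a regulatory subunit of protein kinase A, at 9610.5 to 12086 against 5265 to 5691, and Prkar2b, another, at 427 to 806 against 329 to 414, all 3 without overlap. Among all genes tested 12% lay apart and higher and 12.8% apart and lower. Whether the sets overlap for this list with equal totals in every library was not examined. Creb1, the transcription factor that the kinase activates, was lower without overlap, at 481 to 1148 in the mitochondria-rich and 1188 to 1513 in the histone-rich libraries, a log2 difference of -0.87. It was the lowest of the 9 in every treatment against Control, at -0.31 in MTX, -0.51 in HMS-I1, -0.29 in AA and -0.33 in TSA (SE 0.48 each). With the set term it was the lowest in TSA alone (-0.043, SE 0.32), and Prkaca was the lowest in MTX (-0.33, SE 0.16), Akap13 in HMS-I1 (-0.26, SE 0.23) and Gnas in AA (-0.083, SE 0.17). In the fit without that term, the highest was Prkar1a in MTX (0.36, SE 0.46) and HMS-I1 (0.38, SE 0.46), Adcy3 in AA (0.44, SE 0.34) and Gnas in TSA (0.45, SE 0.55). The count above Control was 5 in MTX, 6 in HMS-I1, 7 in AA and 8 in TSA, and 3, 6, 8 and 8 when every library had the same total. With the set term it was 2 in MTX (median -0.04), 4 in HMS-I1 (-0.07), 5 in AA (0.0099) and 7 in TSA (0.13), and 0 passed an adjusted p of 0.05 in either fit in limma. These genes are expressed in many cell types of the testis, and the part of Sertoli cells in their values was not tested.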
